A study of Mus musculus with 78 samples.

Results

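The 9 genes described here make, move or feed glucose in the kidney: Pck1, G6pc, Fbp1, Pcx, Slc2a2, Slc5a1, Slc5a2, Glud1 and Got1. They were chosen by symbol, and all 9 were found among the 24499 genes counted in each library and passed the filter on low counts in every fit. RNA came from whole pulverized kidneys of male C57BL/6J mice, an inbred strain, and was sequenced as stranded messenger RNA libraries. The diets, fed for 8 weeks, were low in fat (LFD, 4% fat), high in fat (HFD, 31% fat) or deficient in methionine, choline and folate (MCD). Tetrachloroethylene (PERC), a dry-cleaning and degreasing solvent, or vehicle was then given. The dose was 300 mg/kg per day. In the single regimen PERC mice were killed 24 h after 1 dose. In the repeated regimen mice were killed 4 h after the last of 5 daily doses. The vehicle is described as Alkamuls-EL620 in saline. No source used here says when vehicle mice of the single regimen were killed, so their time may differ from that of the PERC mice. The libraries used were 5 LFD vehicle, 4 LFD PERC, 4 HFD vehicle, 5 HFD PERC, 3 MCD vehicle and 4 MCD PERC after a single dose. After 5 doses they were 7 LFD vehicle, 9 LFD PERC, 8 HFD vehicle, 8 HFD PERC, 7 MCD vehicle and 8 MCD PERC. The study asked whether fatty liver or steatohepatitis, modelled by HFD and MCD, alters the response of the kidney to PERC.

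The proximal tubule of the kidney makes glucose from lactate, glutamine and glycerol, and also recovers filtered glucose from the urine. Glutamine taken up by the tubule gives glutamate and then 2-oxoglutarate, releasing ammonia, and the carbon can leave the mitochondrion to be turned into phosphoenolpyruvate and glucose. Fasting and metabolic acidosis are textbook states in which the kidney raises this route, with Pck1 the best known responding gene. Pcx makes oxaloacetate from pyruvate, Pck1 turns oxaloacetate into phosphoenolpyruvate in the cytosol, Fbp1 removes a phosphate from fructose bisphosphate, and G6pc frees glucose from glucose 6-phosphate. Slc5a2 and Slc5a1 are the sodium-glucose cotransporters SGLT2 and SGLT1 of the luminal membrane. Slc2a2 is the facilitative transporter GLUT2. Glud1 is mitochondrial glutamate dehydrogenase and Got1 is cytosolic aspartate aminotransferase.

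The 72 libraries used held 8556278 to 42022166 counts in genes, and the lowest count of any of the 9 genes in any of them was 781, for Slc5a1. Levels are given as CPM, counts in a gene per 1000000 counts in genes, scaled by trimmed mean of M-values (TMM) factors of 0.939 to 1.06. The 10 proximal tubule markers together gave 14410 to 24060 CPM, with none at 0 in any group. Of 5 markers of the late proximal tubule, 2, 2 and 1 fell with 5 PERC doses in LFD, HFD and MCD and none rose. In these comparisons 2.43%, 4.22% and 2.38% of all genes tested were called lower. Slc22a7, an organic anion transporter, changed by -2, -2.32 and -3.14 on the log2 scale (edgeR adjusted p = 0.0304, 0.0124 and 0.00183). The median summed level of the 5 was 3779 CPM in vehicle and 2475 CPM in PERC libraries in LFD, 5026 and 3827 CPM in HFD, and 4765 and 3342 CPM in MCD. Without the LFD library described next, the change of Slc22a7 in LFD was -3.02 (edgeR adjusted p = 0.000212). Slc7a13, another of the 5, also differed after a single dose in LFD, by -0.97 (edgeR adjusted p = 0.0145). The part of these markers in the PERC differences was not tested. Havcr1, a marker of tubule injury, was higher after 5 PERC doses by 4.78 (SE 0.69) in LFD, 3.67 (SE 0.67) in HFD and 3.54 (SE 0.72) in MCD on the log2 scale (edgeR quasi-likelihood test, adjusted p = 1.24e-05, 1.83e-04 and 0.00126). In 1 library, labelled as replicate 4 of LFD repeated PERC, Havcr1 was 4.14 log2 units below the LFD PERC mean, at 1.83 CPM, inside the range of the LFD vehicle libraries (1.78 to 2.65 CPM). Without it the LFD difference of Havcr1 was 4.94 (SE 0.62, edgeR adjusted p = 4.06e-07). Because tissue was sequenced in bulk, fewer cells of a type and less RNA per cell cannot be told apart.

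Sequence upstream of 3 of the genes is shown because their RNA behaved differently: Pck1 differed most between groups, Glud1 differed with diet, and G6pc, the last enzyme of the same route, was called in no comparison between groups. Each window runs from 250 bases before the RefSeq start to 50 from it on, on GRCm38.p6, 5′ to 3′ on the gene's strand. RefSeq windows were matched for 8 of the 9 genes by symbol, all but Slc5a2. Capitals mark matches, on either strand, to ACGTCA (the core of the cAMP response element), GTTAAT (a partial site of HNF1), TATAAA (the TATA box), AGGTCA (the repeat unit of nuclear receptor sites) or AGAACA (the repeat unit of glucocorticoid receptor sites). No matches overlapped in these windows.
Pck1, chr2:173152823-173153122, + strand: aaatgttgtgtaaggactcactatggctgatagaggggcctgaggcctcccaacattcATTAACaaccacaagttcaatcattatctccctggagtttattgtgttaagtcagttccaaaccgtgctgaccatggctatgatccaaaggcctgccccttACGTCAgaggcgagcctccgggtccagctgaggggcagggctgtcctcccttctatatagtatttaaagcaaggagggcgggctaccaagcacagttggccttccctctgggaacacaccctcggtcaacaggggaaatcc
G6pc, chr11:101367466-101367765, + strand: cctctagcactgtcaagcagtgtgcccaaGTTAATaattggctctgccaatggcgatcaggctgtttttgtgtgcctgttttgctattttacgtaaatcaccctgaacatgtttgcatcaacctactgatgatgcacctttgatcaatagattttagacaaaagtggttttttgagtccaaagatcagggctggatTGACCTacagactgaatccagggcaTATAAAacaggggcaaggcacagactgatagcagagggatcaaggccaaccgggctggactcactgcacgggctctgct
Glud1, chr14:34310477-34310776, + strand: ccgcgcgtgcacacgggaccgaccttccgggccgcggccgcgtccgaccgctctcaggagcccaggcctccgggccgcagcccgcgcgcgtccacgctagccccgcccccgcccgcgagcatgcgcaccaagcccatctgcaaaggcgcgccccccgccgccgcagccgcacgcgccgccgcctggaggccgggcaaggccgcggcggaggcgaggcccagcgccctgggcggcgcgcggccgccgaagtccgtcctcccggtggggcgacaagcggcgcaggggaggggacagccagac

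The Pck1 window holds ACGTCA 91 bases before the start and GTTAAT, on the other strand, 192 bases before it. The G6pc window holds GTTAAT 221, AGGTCA on the other strand 54 and TATAAA 29 bases before the start. The Glud1 window holds none of the 5 motifs and has G or C at 243 of its 300 bases, where the median window is 52.7% G and C. Of all 32851 windows, 7.51% hold ACGTCA, 7.1% GTTAAT, 13.6% TATAAA, 16.3% AGGTCA, and 6233 windows hold AGAACA. These are matches of letters and say nothing of which factor binds. The gene bodies lie at chr2:173153048-173159273 for Pck1, chr11:101367561-101377903 for G6pc and chr14:34310727-34345265 for Glud1 (GENCODE release M21, GRCm38).

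Per kilobase of exon, Pck1, Fbp1 and G6pc stood highest. In the LFD repeated vehicle libraries the median level was 544.8 CPM per kb for Pck1, 493.4 for Fbp1 and 336.2 for G6pc, with Pcx next. The transporters and amino acid enzymes were lower, at 138.7 CPM per kb for Slc5a2, 118.6 for Glud1, 55.57 for Got1, 39.6 for Slc2a2 and 25.34 for Slc5a1. Pck1 was also the most variable. It ran from 576 to 11300 CPM over the 72 libraries, 19.5-fold, and took 0.0588% to 1.06% of a library's counts in genes. The other 8 genes spanned 1.68-fold (Slc5a1) to 3.26-fold (Glud1).

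The level of Pck1 differed with diet in mice that had received vehicle. In the single regimen the 5 LFD vehicle libraries held 783.9, 1151, 954.8, 576.2 and 1253 CPM of Pck1. The 4 HFD vehicle libraries held 3759, 4038, 4555 and 4295 CPM, all above every LFD library. The 3 MCD vehicle libraries, at 1653, 2094 and 1986 CPM, also lay above every LFD library and below every HFD library. In the repeated regimen Pck1 ran from 1070 to 2220 CPM with a median of 1870 in the 7 LFD vehicle libraries. It ran from 4090 to 6680 CPM (median 5200) in the 8 HFD vehicle libraries and from 3290 to 5410 CPM (median 4550) in the 7 MCD vehicle libraries. Again neither diet's range overlapped that of LFD, while HFD and MCD overlapped each other.

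**Figure D1:**
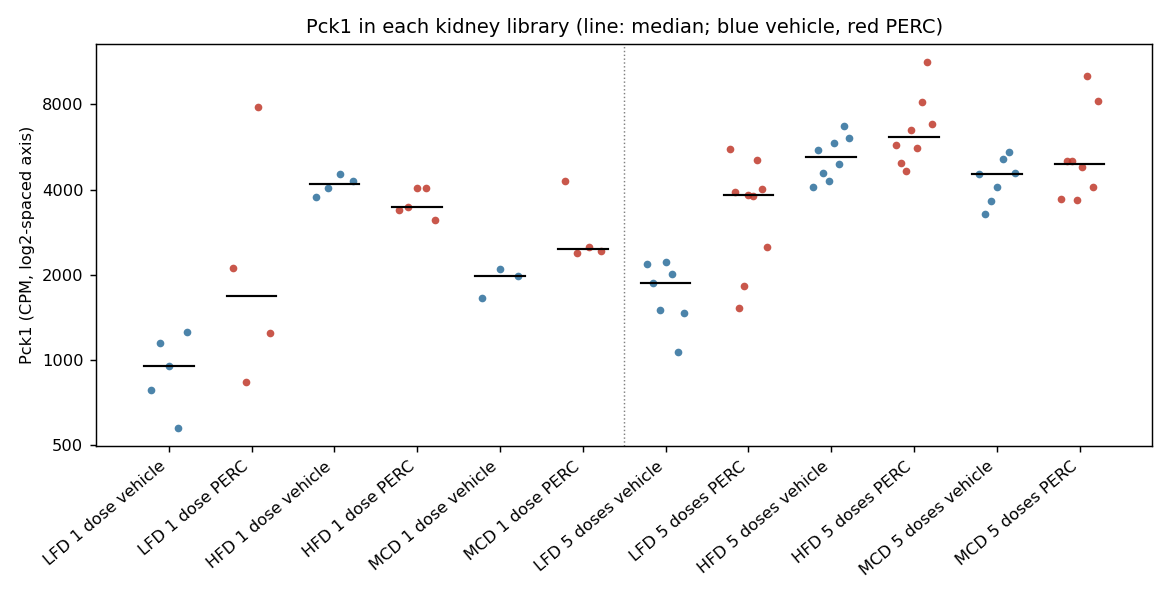
Pck1 level (CPM, log2-spaced axis) in each of the 72 libraries, by diet, number of doses and treatment, with a line at each group's median. In both regimens the HFD vehicle libraries sit above every LFD vehicle library, and after 5 doses most LFD PERC libraries sit above the LFD vehicle libraries.

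On the log2 scale Pck1 was higher in HFD than in LFD vehicle kidneys by 2.14 (SE 0.41, n = 4 and 5, adjusted p = 0.00468) in the single regimen and by 1.58 (SE 0.23, n = 8 and 7, adjusted p = 7.03e-06) in the repeated regimen (edgeR). In MCD it was higher by 1.32 (SE 0.23, n = 7 and 7, adjusted p = 2.7e-04) in the repeated regimen. The single-regimen MCD difference of 1.03 (SE 0.43, n = 3 and 5, 95% interval 0.13 to 1.92) did not pass the test (adjusted p = 0.609). Within sequencing lanes, as the deposited names give them, the HFD difference lay between 1.98 and 2.38 in the 3 lanes of the single regimen and between 1.12 and 2.28 in the 5 lanes of the repeated regimen. The MCD difference was positive in each of these lanes as well, from 0.8 to 1.99. The LFD vehicle libraries serve as the reference for both diets, so these comparisons share samples.

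With 5 PERC doses Pck1 rose in LFD kidneys. The 7 LFD vehicle libraries averaged 1760 ± 428 CPM (SD) and the 9 LFD PERC libraries 3560 ± 1380 CPM, with a range of 1520 to 5580 and a median of 3830. The libraries labelled LFD PERC replicates 3 and 4, at 1521 and 1819 CPM, lay inside the vehicle range, and the other 7 lay above it. The rise was 1.02 on the log2 scale (SE 0.22, adjusted p = 0.00255), and 1.11 (edgeR adjusted p = 4.11e-04) without the library labelled replicate 4. Within lanes the difference was 1 to 1.16 in 4 of the 5 lanes. In lane 5 it was -0.17, between PERC replicates 3 and 4 and 1 vehicle library. Of 11 adipocyte markers, 8 were also higher in this comparison, with or without the library labelled replicate 4. With all libraries, 4.48% of all genes tested were called higher. The summed level of the markers was 46.91 to 122.6 CPM in vehicle and 100.9 to 454.3 CPM in PERC libraries, with none at 0. With the adipocyte marker level as a term in the fit the Pck1 difference was 0.87 (SE 0.27, adjusted p = 0.0586). Their part in the difference was not tested in any other way.

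In the diets where Pck1 already stood high, its PERC difference was smaller and did not pass the test. After 5 doses HFD kidneys went from 5250 ± 926 (n = 8) to 6720 ± 2150 CPM (n = 8), a log2 difference of 0.36 with a 95% interval of -0.07 to 0.79 (adjusted p = 0.344). MCD kidneys went from 4390 ± 767 (n = 7) to 5580 ± 2330 CPM (n = 8), a log2 difference of 0.34 with an interval of -0.1 to 0.79 (adjusted p = 0.467). The PERC difference in HFD minus that in LFD was -0.66 (SE 0.3, unadjusted p = 0.0339, edgeR adjusted p = 0.877), and that in MCD minus LFD was -0.68 (SE 0.31, unadjusted p = 0.0332, edgeR adjusted p = 0.726). Neither passed the test, so the diets were not shown to differ in this response.

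A single PERC dose left Pck1 uneven in LFD kidneys. The 4 LFD PERC libraries held 2110, 838, 7813 and 1249 CPM. Replicate 4 stood far above the others, and replicates 3 and 5 lay inside the vehicle range of 576.2 to 1253 CPM. The log2 difference was 1.67 (SE 0.41), with an edgeR adjusted p of 0.0534. Without replicate 4 it was 0.56 (edgeR adjusted p = 0.778). Without replicate 3 it was 1.98 (edgeR adjusted p = 0.00372), and without replicate 5 it was 1.92 (edgeR adjusted p = 0.014). The 5 HFD PERC libraries held 3381, 3481, 4049, 4038 and 3122 CPM, overlapping the HFD vehicle range, with a log2 difference of -0.2 (SE 0.4, adjusted p = 1). The 4 MCD PERC libraries held 4302, 2384, 2511 and 2419 CPM, all above the 3 MCD vehicle libraries, with a log2 difference of 0.59 (SE 0.47, adjusted p = 0.999).

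Counted over all 9 genes, few passed the test in any comparison (edgeR, adjusted p under 0.05). With 5 PERC doses 1 of 9 passed in LFD (Pck1), where 6.91% of the 14614 genes tested did (4.48% higher and 2.43% lower), and 20.6% had an unadjusted p under 0.05, as did 4 of 9. In HFD 0 of 9 passed, against 9.18% of genes (4.97% higher and 4.22% lower). There 4 of 9, and 21.9% of genes, had an unadjusted p under 0.05, and DESeq2 called 0 of 9. In MCD 0 of 9 passed, against 5.1% of genes (2.72% higher). There 1 of 9, and 17.3% of genes, had an unadjusted p under 0.05, and DESeq2 called 0 of 9. After a single dose 0 of 9 passed in LFD, HFD and MCD, against 0.749%, 0.007% and 0.028% of 14280 genes. There 4, 1 and 1 of 9 had an unadjusted p under 0.05, against 9.37%, 4.04% and 4.96% of genes, and DESeq2 called 1, 0 and 0 of 9. For diet in vehicle mice, 1 of 9 passed for HFD (Pck1) and 0 of 9 for MCD in the single regimen, against 1.64% and 0.476% of genes. For HFD there, 6 of 9 and 10.6% of genes had an unadjusted p under 0.05. For MCD there (0.259% of genes lower), 3 of 9 and 6.6% of genes did, and DESeq2 called 0 of 9. In the repeated regimen 3 of 9 passed for HFD (Pck1, Glud1 and Slc5a2) and 1 of 9 for MCD (Pck1), against 6.64% and 3.48% of genes (3.86% and 2.11% higher, and 2.78% lower for HFD). For HFD and MCD there, 5 and 5 of 9 had an unadjusted p under 0.05, against 20.7% and 13.5% of genes. The median log2 difference of the 9 genes lay between -0.09 and 0.25 over these 10 comparisons, and that of all genes tested between -0.012 and 0.0096.

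**Figure D2:**
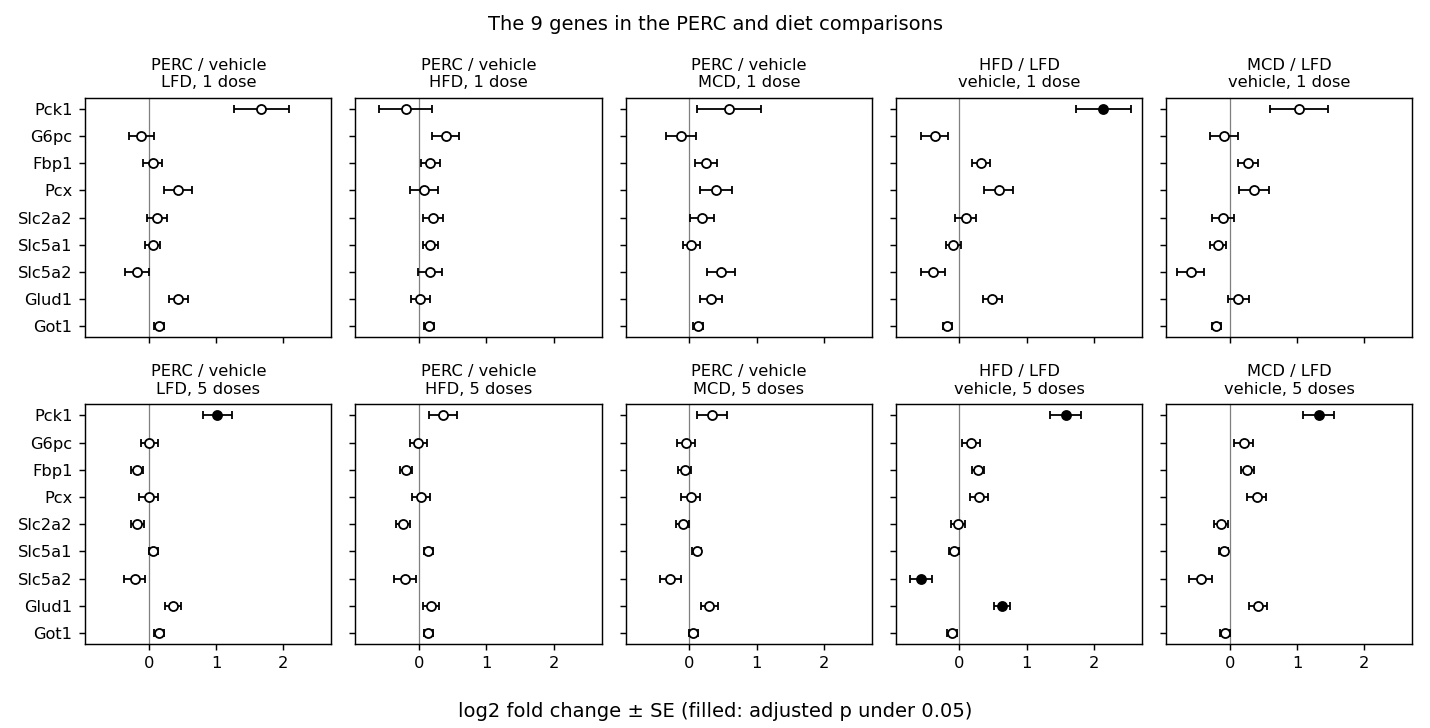
Log2 fold change ± SE of each of the 9 genes in the 6 PERC and 4 diet comparisons (filled points have an adjusted p under 0.05). Pck1 lies farthest to the right in every panel except HFD after a single dose, and the genes with a filled point are Pck1, Glud1 and Slc5a2.

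Tests of differences between responses called none of the 9 genes. For PERC in HFD minus LFD and MCD minus LFD, 0 of 9 passed in each regimen, against 0% and 0% of genes in the single and 0.0137% and 0% in the repeated regimen. In these 4 tests 2, 1, 1 and 1 of 9 had an unadjusted p under 0.05, against 5.54%, 4.2%, 5.51% and 6.46% of genes. For 5 doses minus a single dose, 0 of 9 passed in LFD, HFD and MCD, against 0.0132%, 0.132% and 0.0132% of 15139 genes, and 0, 2 and 1 of 9 had an unadjusted p under 0.05, against 4.54%, 9.64% and 8.21% of genes. DESeq2 also called 0 in all 7. The 2 regimens differ in both the number of doses and the time of death.

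Glud1, the enzyme that releases ammonia from glutamate, followed diet in the vehicle kidneys of the repeated regimen. It ran from 467 to 550 CPM (median 499) in the 7 LFD vehicle libraries, from 689 to 882 CPM (median 764) in the 8 HFD vehicle libraries and from 588 to 728 CPM (median 675) in the 7 MCD vehicle libraries. Neither the HFD nor the MCD range overlapped that of LFD. The log2 difference was 0.63 (SE 0.12, adjusted p = 4.94e-04) for HFD and 0.42 (SE 0.13, adjusted p = 0.0521) for MCD, edgeR, and the first passed while the second missed the threshold. DESeq2 gave the MCD difference an adjusted p of 0.031. In the single regimen the difference was 0.49 (SE 0.14, adjusted p = 0.081) for HFD, again with no overlap, and 0.13 (SE 0.15, adjusted p = 1) for MCD.

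With 5 PERC doses Glud1 averaged 641 ± 84.1 CPM in LFD (n = 9) against 503 ± 27.8 in vehicle (n = 7), 883 ± 218 against 778 ± 63.8 in HFD (n = 8 and 8) and 827 ± 262 against 668 ± 45.3 in MCD (n = 8 and 7). The log2 differences were 0.36 (SE 0.12), 0.18 (SE 0.12) and 0.3 (SE 0.12), with edgeR adjusted p of 0.0581, 0.389 and 0.161, so none passed. Without the library labelled LFD repeated PERC replicate 4, the LFD difference was 0.39 (edgeR adjusted p = 0.0248). The PERC groups spread more widely than their vehicle groups. In HFD, 2 PERC libraries stood at 1210 and 1240 CPM and the other 6 at 677 to 887. In MCD, 1 stood at 1440 CPM and the other 7 at 616 to 907.

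**Figure D3:**
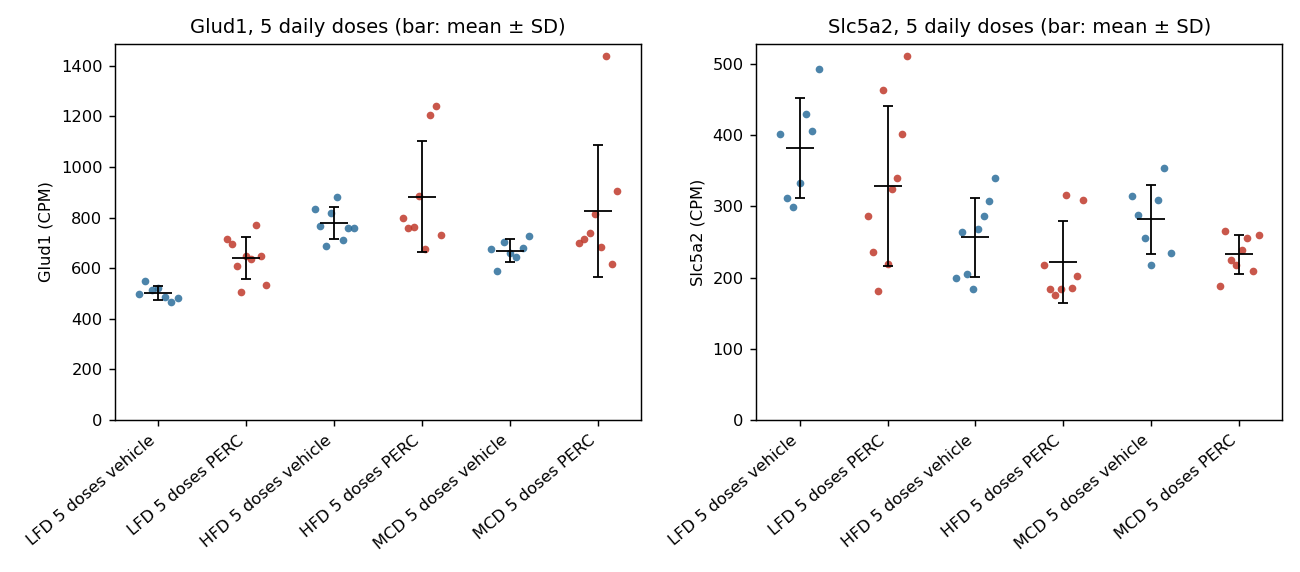
Glud1 and Slc5a2 levels (CPM) in each library of the repeated regimen, with the mean ± SD of each group. Glud1 is higher in HFD and MCD than in LFD vehicle libraries with no overlap, and Slc5a2 is lower in HFD than in LFD vehicle libraries with overlap.

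Slc5a2, which takes up most filtered glucose in the early proximal tubule, moved the other way with HFD. It ran from 299 to 492 CPM (median 402) in LFD, from 185 to 340 CPM (median 266) in HFD and from 218 to 355 CPM (median 288) in MCD vehicle libraries of the repeated regimen. The HFD and LFD ranges overlapped, as did the MCD and LFD ranges. The log2 difference was -0.57 (SE 0.16, adjusted p = 0.0238) for HFD and -0.43 (SE 0.17, adjusted p = 0.187) for MCD, edgeR, and the second did not pass. The HFD call was lost, with an adjusted p of 0.194 and a difference of -0.53, with the adipocyte marker level as a term, and without HFD vehicle replicates 1, 3 or 4 or LFD vehicle replicates 5 or 7. Of the adipocyte markers 7 of 11 were higher in HFD and 6 of 11 in MCD vehicle libraries, against 3.86% and 2.11% of all genes tested. Their summed levels were 33.63 to 176.3 and 49.27 to 148.1 CPM, against 46.91 to 122.6 CPM in LFD. The part of these markers in the difference was not tested in any other way. Within the 5 lanes the HFD difference of Slc5a2 was -0.81 to -0.4. In the single regimen the differences were -0.39 (SE 0.18) for HFD and -0.58 (SE 0.2) for MCD, and neither passed (edgeR adjusted p = 0.436 and 0.403).

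The Slc5a2 gene, at chr7:128265657-128272430 on the + strand, shares 597 bases of exon with BC017158 on the other strand, and the strand setting of the counting is not given, so reads of the 2 genes may not be fully separated. BC017158 was counted at 15.6 to 33 CPM over all groups and differed by -0.11 (SE 0.1, edgeR adjusted p = 0.562) between HFD and LFD vehicle kidneys. None of the other 8 genes shares exon bases with another annotated gene. With 5 PERC doses Slc5a2 averaged 329 ± 112 CPM in LFD, 221 ± 57.4 in HFD and 233 ± 27.2 in MCD, and the differences of -0.21, -0.21 and -0.28 from vehicle did not pass (edgeR adjusted p = 0.506, 0.487 and 0.408).

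The remaining transporters stayed within narrow ranges. Slc5a1, which recovers glucose in the late proximal tubule, averaged 91.2 to 114 CPM in the 12 groups, and Slc2a2, the basolateral exit, 188 to 251 CPM. Neighbouring groups in the order of their medians overlapped for both. Among the 10 PERC and diet comparisons, the difference of Slc2a2 with the lowest p was its PERC difference after 5 doses in HFD, 229 ± 27.1 to 194 ± 28.2 CPM, at -0.24 (SE 0.1, unadjusted p = 0.0154, edgeR adjusted p = 0.11). That of Slc5a1 was 0.14 (SE 0.07, unadjusted p = 0.0493, edgeR adjusted p = 0.226) in the same comparison.

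G6pc did not move with Pck1 between groups. Its group means ran from 579 to 857 CPM, and all neighbouring groups overlapped. In the repeated regimen its HFD difference from LFD vehicle was 0.17 with a 95% interval of -0.1 to 0.43, and its PERC difference in LFD was 0.01 with an interval of -0.25 to 0.27, both below the differences of Pck1 in the same comparisons. Fbp1 was higher in HFD than in LFD vehicle libraries of the repeated regimen by 0.28 (SE 0.09, 1010 ± 74.5 against 833 ± 80.7 CPM) without passing the test (edgeR adjusted p = 0.0618). DESeq2 gave this difference an adjusted p of 0.0497, and it was also called with lane as a term (edgeR adjusted p = 0.0385) and in a fit of only the groups compared (edgeR adjusted p = 0.00819). Pcx differed by 0.4 (SE 0.14) between MCD and LFD vehicle libraries, 742 to 1140 CPM (median 888) against 555 to 769 CPM (median 689), with overlapping ranges and an edgeR adjusted p of 0.13. After 5 PERC doses Fbp1 differed by -0.18, -0.19 and -0.07 and Pcx by 0, 0.03 and 0.02 in LFD, HFD and MCD, and none passed. Got1 averaged 118 to 157 CPM in the 12 groups. Its PERC difference was between 0.06 and 0.15 in all 6 comparisons, and none passed (edgeR adjusted p between 0.184 and 1). With the adipocyte marker level as a term, that of 5 doses in LFD was 0.26 and passed (edgeR adjusted p = 0.0335).

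The libraries in which Pck1 stood high for their group also stood high for Glud1. Across the 72 libraries, taking log2 CPM as deviations from the group mean, Glud1 followed Pck1 with Pearson's r = 0.72 and Spearman's rho = 0.62 (permutation within groups, adjusted p = 9.33e-05 for each). Pcx followed with r = 0.53 and rho = 0.44 (adjusted p = 0.00455 and 0.00679), and G6pc with r = 0.32 and rho = 0.35 (adjusted p = 0.0181 and 0.0236). For Fbp1, Slc2a2, Slc5a1, Slc5a2 and Got1 r was 0.27, -0.24, -0.08, 0.08 and 0.01, and none passed. Among 20 genes of glutamine, glutamate and ammonia handling, tested in the same family of 28 relations, 3 passed by both r and rho. These were Slc38a3, a glutamine transporter that carries glutamine into the tubule cell from the blood side (r = 0.77, rho = 0.72, permutation adjusted p = 9.33e-05 for each), Gpt, alanine aminotransferase (r = 0.69, rho = 0.64, permutation adjusted p = 9.33e-05 for each), and Slc1a5, a neutral amino acid exchanger (r = 0.43, rho = 0.34, permutation adjusted p = 0.00913 and 0.035). Slc6a19, an apical carrier of neutral amino acids, passed by rho alone, in the other direction (r = -0.22, rho = -0.33, permutation adjusted p = 0.252 and 0.0327). Without the library labelled LFD repeated PERC replicate 4, r was 0.71 for Glud1, 0.55 for Pcx, 0.32 for G6pc, 0.76 for Slc38a3, 0.69 for Gpt and 0.38 for Slc1a5, all past the threshold. The rho of Slc1a5 and of Slc6a19 then missed it (permutation adjusted p = 0.0795 and 0.0723), and Glul passed by r (0.34, permutation adjusted p = 0.0285). The value of 9.33e-05 comes from the smallest p that 100000 permutations can give, 1e-05. The analysis was chosen after the values were seen, and the points share library and depth.

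Without the 2 libraries farthest from the median of Pck1, LFD single PERC replicates 3 and 4, r was 0.65 for Glud1, 0.76 for Slc38a3, 0.72 for Gpt, 0.48 for Pcx and 0.29 for G6pc, and all 5 passed by r. Slc1a5 also passed by r (0.45, permutation adjusted p = 0.0174). By rho G6pc and Slc1a5 missed the threshold (permutation adjusted p = 0.0521 for each). Slc2a2 (r = -0.32), Slc1a1 (r = -0.37), Got2 (r = 0.34) and Glul (r = 0.35) then passed by r, with permutation adjusted p of 0.0497, 0.0497, 0.0497 and 0.0498, and none of these by rho. Among the 38 PERC libraries r was 0.79 for Glud1 and 0.81 for Slc38a3 (permutation adjusted p = 9.33e-05 for each). Among the 34 vehicle libraries it was 0.29 for Glud1 (adjusted p = 0.303) and 0.54 for Slc38a3 (adjusted p = 0.0297). For Pcx and G6pc r was 0.59 and 0.34 in PERC libraries (permutation adjusted p = 0.0184 and 0.101). In vehicle libraries it was 0.34 and 0.39 (permutation adjusted p = 0.303 for each). The difference between PERC and vehicle libraries was not tested. Within LFD, HFD and MCD r was 0.85, 0.65 and 0.75 for Glud1 and 0.85, 0.75 and 0.76 for Slc38a3. By rho Glud1 missed the threshold in HFD and MCD (permutation adjusted p = 0.0509 and 0.169). Slc38a3 missed it by rho in MCD (permutation adjusted p = 0.169). In LFD single PERC replicate 4, with 7813 CPM of Pck1, Glud1 was at 978 and Slc38a3 at 259 CPM, the highest of that group for all 3 genes. In MCD repeated PERC replicate 6, with 10100 CPM of Pck1, Glud1 was at 1440 and Slc38a3 at 263 CPM, again the highest of the group. Havcr1 in that library deviated by -2.786 log2 units from the mean of its group.

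**Figure D4:**
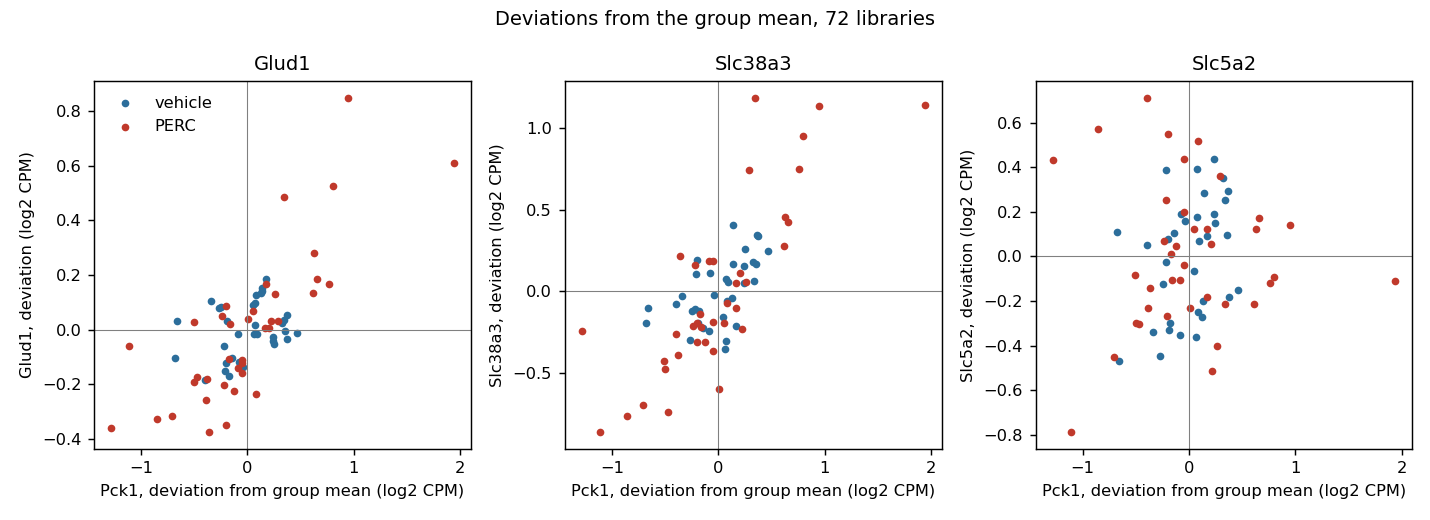
Deviations of Glud1, Slc38a3 and Slc5a2 from the group mean against that of Pck1 (log2 CPM) in 72 libraries, coloured by treatment. Glud1 (r = 0.72) and Slc38a3 (r = 0.77) rise with Pck1, and Slc5a2 (r = 0.08) shows no such slope.

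Among the other genes of glutamine, glutamate and ammonia handling, 19 of 20 were tested. With 5 PERC doses 3 rose and 2 fell in LFD, 3 rose and 1 fell in HFD, and 2 rose and 1 fell in MCD, where 6.91%, 9.18% and 5.1% of all genes tested were called. Without the library labelled LFD repeated PERC replicate 4, the same 5 were called in LFD. Slc1a5 rose in all 3 diets, by 0.81 (SE 0.12), 0.62 (SE 0.12) and 0.47 (SE 0.12) on the log2 scale in LFD, HFD and MCD (edgeR adjusted p = 9.89e-06, 2.33e-04 and 0.0111). Slc9a3, the sodium-proton exchanger through which the tubule also secretes ammonium, fell by 0.27 in LFD, 0.39 in HFD and 0.5 in MCD (edgeR adjusted p = 0.0204, 4.18e-04 and 2.85e-05). Slc38a3 rose by 0.92 (SE 0.24) in LFD and 0.98 (SE 0.24) in HFD (edgeR adjusted p = 0.0154 and 0.00523). It was also the 1 gene of this list that rose after a single dose, in LFD, by 1.63 (SE 0.25, edgeR adjusted p = 0.00235). There the 5 vehicle libraries held 34.2 to 50.3 CPM and the 4 PERC libraries 102, 98.6, 259 and 71.9 CPM, with no overlap. With diet, in the repeated regimen, Slc6a19 and Slc7a8, apical and basolateral carriers of neutral amino acids, were lower in both HFD and MCD vehicle kidneys. Slc6a19 fell by 0.57 in HFD and 0.65 in MCD on the log2 scale (edgeR adjusted p = 4.89e-04 and 2.54e-04). The lists of genes were fixed with earlier results of these data known.

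Of 14 other genes of gluconeogenic steps, all tested, 1, 2 and 2 rose and none fell with 5 PERC doses in LFD, HFD and MCD, where 4.48%, 4.97% and 2.72% of all genes tested rose. In LFD this is near the share of all genes. Pck2, the mitochondrial counterpart of Pck1, went from 15.2 ± 1.08 to 30.7 ± 12.6 CPM in LFD, from 13.1 ± 1.53 to 25.8 ± 4.96 in HFD and from 14.8 ± 1.01 to 26.9 ± 6 in MCD. The log2 differences were 1.02, 0.97 and 0.86 (SE 0.16 for each, edgeR adjusted p = 4.61e-05, 3.47e-05 and 5.56e-04). Unlike that of Pck1, the Pck2 level of HFD and MCD vehicle kidneys did not differ from LFD in a way that passed the test. Fbp2, the muscle form of fructose bisphosphatase, rose by 0.81 in HFD and 0.86 in MCD with 5 doses and differed in vehicle kidneys by -0.78 in HFD and -0.81 in MCD from LFD. The edgeR adjusted p were 0.00142, 0.00168, 0.00354 and 0.00621. Slc37a4, the carrier that delivers glucose 6-phosphate to G6pc, was higher in HFD vehicle kidneys by 0.5 (SE 0.13, edgeR adjusted p = 0.0429) in the single and 0.27 (SE 0.09, edgeR adjusted p = 0.0471) in the repeated regimen.

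Of 14 tested genes of glycolytic control, 3, 2 and 1 rose and none fell with 5 doses in LFD, HFD and MCD, against the same 4.48%, 4.97% and 2.72% of all genes. Pfkp, a phosphofructokinase, rose in each, by 0.39, 0.53 and 0.39 (SE 0.08 for each, edgeR adjusted p = 9.77e-04, 5.58e-06 and 0.00149). Hexokinase 2 (Hk2) was higher in HFD and MCD vehicle kidneys by 1.95 and 1.99 (SE 0.46 for each, edgeR adjusted p = 0.00431 and 0.00707), from a level of 0.81 ± 0.354 CPM in LFD. Of 7 carriers of lactate and pyruvate, Slc16a1 (MCT1) rose with 5 doses by 1.37 in HFD and 0.95 in MCD (SE 0.19 for each, edgeR adjusted p = 1.22e-06 and 0.00114). In these comparisons 4.97% and 2.72% of all genes rose. None was called in LFD by edgeR, against 6.91% of all genes, and 2 had an unadjusted p under 0.05, against 20.6%. Slc16a1 was lower than in LFD in single-regimen vehicle kidneys, by log2 differences of -0.91 in HFD and -0.89 in MCD (edgeR adjusted p = 0.00313 and 0.0284). Slc16a7 was lower in repeated-regimen vehicle kidneys, by -0.38 in HFD and -0.51 in MCD (edgeR adjusted p = 0.0208 and 0.00428). Slc5a12, a sodium-lactate cotransporter, went from 807 ± 92.6 CPM in LFD to 524 ± 78.7 in HFD and 496 ± 75.6 in MCD vehicle kidneys (edgeR adjusted p = 3.58e-04 and 2.48e-04). Of 13 tested other sugar transporters none rose in any of the 10 PERC and diet comparisons, in which 0.007% to 4.97% of all genes rose. Slc5a9 was lower in both diets in both regimens, by log2 differences of -0.27 to -0.61. In HFD vehicle kidneys Slc2a4 was also lower in the single regimen (-0.48), and Slc2a12 (-0.35) and Slc5a11 (-0.31) in the repeated regimen. In the diet comparisons 0.259% to 2.78% of all genes were lower. With 5 doses in HFD Slc5a4a and Slc5a9 changed by -1.01 and -0.22 (edgeR adjusted p = 0.039 and 0.0445), where 4.22% of all genes fell. Of 4 tested genes of fructose and sorbitol use, Slc2a5, a fructose transporter, fell by 0.56 with 5 doses in HFD (edgeR adjusted p = 0.00576), and no other was called in these comparisons.

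Among 20 regulators of gluconeogenesis, Sik1, a kinase that restrains this gene programme in mouse liver, fell with 5 PERC doses by 0.47 in LFD, 0.46 in HFD and 0.61 in MCD (SE 0.15 for each, edgeR adjusted p = 0.0416, 0.0347 and 0.00957). Insr, the insulin receptor, rose by 0.27 in HFD and 0.33 in MCD (SE 0.09 for each, edgeR adjusted p = 0.0441 and 0.0234). Foxo3 was lower by a log2 difference of -0.68 (SE 0.17, edgeR adjusted p = 0.00961) in HFD vehicle kidneys of the repeated regimen. The other 17 were not called in any of the 10 PERC and diet comparisons, in which 0.007% to 9.18% of all genes were called, and 0 to 2 of 20 regulators is near those shares. Without the library labelled LFD repeated PERC replicate 4, Sik1 changed by -0.5 in LFD (edgeR adjusted p = 0.0234). After a single dose 0 of 20 were called by edgeR in LFD, HFD and MCD, against 0.749%, 0.007% and 0.028% of all genes. There 2, 1 and 1 of 20 had an unadjusted p under 0.05, near the 9.37%, 4.04% and 4.96% of all genes.

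Pcx and Fbp1 were lower in the five-dose PERC libraries that held more Havcr1. Over the 25 libraries, taken as deviations from the diet mean on the log2 scale, r was -0.54 for Pcx (rho = -0.6, permutation adjusted p over the 9 genes = 0.0477 and 0.024) and -0.54 for Fbp1 (rho = -0.47, permutation adjusted p = 0.0477 and 0.125). For the other 7 genes r lay between -0.34 (Slc5a2) and 0.06 (Pck1), and none passed. Without the 2 libraries farthest from the median of Havcr1, LFD replicate 4 and HFD replicate 1, r was -0.54 for Pcx (adjusted p = 0.0904) and -0.41 for Fbp1 (adjusted p = 0.276). Without those libraries the calls of both genes were lost, with a smaller r for Fbp1 and the same r for Pcx. As deviations from diet and lane, r was -0.62 for Pcx (adjusted p = 0.0148) and -0.51 for Fbp1 (adjusted p = 0.0677). Within diets Pcx gave r = -0.29 in LFD (n = 9), -0.86 in HFD (n = 8) and -0.63 in MCD (n = 8), by exact permutation with adjusted p = 0.553, 0.0292 and 0.305. The sign of r for Glud1 and Pck1 was not the same in all diets. In LFD, HFD and MCD it was 0.79, -0.27 and -0.83 for Glud1 (exact permutation, adjusted p = 0.0874, 0.596 and 0.272) and 0.54, -0.44 and -0.53 for Pck1 (exact permutation, adjusted p = 0.309, 0.492 and 0.342). None of these passed, and the difference between diets was not tested.

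**Figure D5:**
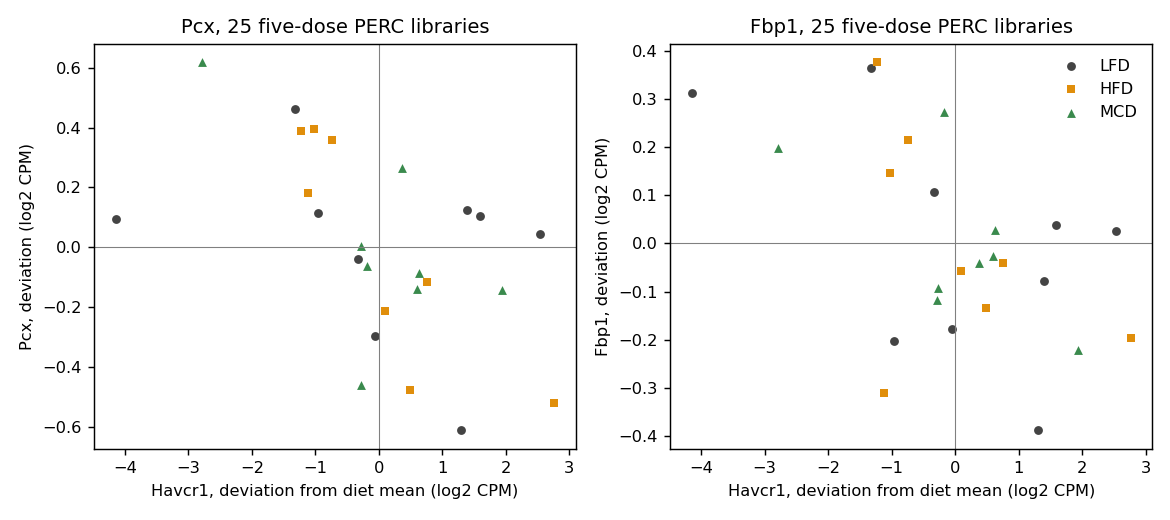
Pcx and Fbp1 against Havcr1 in the 25 five-dose PERC libraries, as deviations from the diet mean (log2 CPM), with a symbol for each diet. Most libraries with more Havcr1 hold less Pcx (r = -0.54) and less Fbp1 (r = -0.54), and LFD replicate 4 lies apart at -4.14 on the Havcr1 axis.

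For the 3 genes called in a PERC or diet comparison, the nearest of 15138 other genes were found by the root mean square difference of the 12 centred group means of log2 CPM. For Pck1 they were Aim1l (0.213) and Nat8f5 (0.269), set against an SD of 0.822 between the group means of Pck1. For Slc5a2 they were Qprt (0.074) and Slc7a4 (0.083), against an SD of 0.263, and for Glud1 they were Acot12 (0.079) and Vwa8 (0.087), against an SD of 0.258. These distances describe 12 points and carry no test.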

How the data were processed

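The authors deposited whole-number read counts per gene symbol, without normalization, 1 file for each library. The submitters' processing notes list, with no role or order, TopHat2 2.0.13, HTSeq, DESeq2, Trimmomatic and bcl2fastq 2.17.1.14, and the build GRCm38 (mm10). Annotation and strand setting are not given in the sources used here. A median of 53.1% of reads (45.4% to 62.3%) was in genes, 21.7% mapped to more than 1 place, 22.9% fell outside features, 0.685% were ambiguous and 2.28% unmapped. These rows stayed out of library sizes and tests.

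The labels name 78 samples and 77 had a file. Libraries under 1000000 counts in genes were left out: 5, all of the single regimen, at 2267 to 22029 counts (MCD vehicle replicates 1 and 4, and replicate 2 of MCD PERC, HFD vehicle and LFD PERC). The series description gives 8 mice for each diet and treatment of the repeated regimen, where the labels give LFD 7 vehicle and 9 PERC. Numbers of replicates follow accession order and serve as names. The depth above limits precision for genes of few counts, and the lowest count of the 9 genes was 781. The edgeR and DESeq2 p-values set a difference against the spread between mice. The permutation p-values set a relation against libraries shuffled within groups.

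Each regimen was fitted over its 6 groups, and differences between regimens over all 12, with edgeR 4.0.16 in R 4.3.3: TMM, filterByExpr, robust glmQLFit and glmQLFTest, and Benjamini-Hochberg adjustment over all genes tested, with 0.05 as threshold. The SE was taken as the size of the log2 fold change over the root of F. Log2 CPM used a prior count of 2. The procedure was tested on simulated data. Alternatives were RLE size factors, no filter, DESeq2 1.42.0, only the groups compared, lane or adipocyte marker level as a term, the shallow libraries kept, and each library left out. The 9 genes and all lists were chosen with earlier results of these data known. Named genes were the 9, at most the 3 list genes with the lowest adjusted p in a comparison, the 2 genes most like each called member, and Havcr1; BC017158 was named for its overlap, and relations to Pck1 were added after seeing the data. Relations were tested by 100000 permutations within groups, exact within a diet. Promoters came from RefSeq. Results for some list genes are not reported here.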

Additional observations from a re-analysis of the deposited data

Results flagged for a closer look

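Among 99 combinations of gene and group with 4 to 10 libraries, 5 held a library set apart from the rest by Dixon's test, and chance flags about 1 in 20. Pck1 stood at 4300 CPM in MCD single PERC replicate 1, against 2380 to 2510 CPM in the other 3 libraries. Slc2a2 stood at 132 CPM in HFD repeated PERC replicate 7, against 179 to 219 CPM in the others. That library also held the highest Pck1 of all, 11300 CPM. Glud1 stood at 1440 CPM in MCD repeated PERC replicate 6, against 616 to 907 CPM in the others. Got1 stood at 170 CPM in LFD single PERC replicate 3, against 144.7 to 147.9 CPM, and at 196 CPM in HFD repeated PERC replicate 6, against 123.3 to 147.2 CPM.

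After a single PERC dose every HFD library lay below the mean of its vehicle group for Pck1 and every MCD library above it. The log2 differences were -0.2 (SE 0.4) and 0.59 (SE 0.47), and neither passed the edgeR test (adjusted p = 1 and 0.999). The difference between HFD and MCD was not tested.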

How the results depend on the processing

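No paired analysis was possible because the replicate numbers follow accession order and pair no samples. Pck1 kept its call for diet under all 7 alternatives and every left-out library (HFD single 1.96 to 2.26, HFD repeated 1.44 to 1.63, MCD repeated 1.18 to 1.38, log2). Its call for 5 doses in LFD was lost with the adipocyte term (0.87), where Got1 was called in its place. The Pck1 call was kept under the other 6 (0.96 to 1.02) and all 16 left-out libraries (up to 1.12). Counts of the 9 genes called moved as follows, and the cause was not tested. For a single dose in LFD, DESeq2 called 1 (Pck1) and leaving out a library gave 0 to 2. For 5 doses in LFD, DESeq2 and the fit of only the groups compared called 2 (Pck1, Glud1), and leaving out a library gave 1 to 2. For HFD against LFD vehicle in the single regimen these called 2 (Pck1, Glud1), and in the repeated regimen DESeq2, the lane term and the fit of only the groups compared called 4 (with Fbp1), the adipocyte term 2 (without Slc5a2), and leaving out a library gave 2 to 3. For MCD against LFD vehicle, the lane term called 1 (Slc5a2) after a single dose. After 5 doses DESeq2 called 2 (Pck1, Glud1), the lane term 3 (with Pcx) and the fit of only the groups compared 4 (with Pcx and Slc5a2). Without LFD repeated PERC replicate 4, no gene of the lists lost its call for 5 doses in LFD, and those that gained one, seen afterwards, included Fbp2, Ldha, Tkfc, Slc5a9, Ppara, Atp11a and Cd68. No call among the 9 genes changed sign, while 236 of 3654 alternative values, none called, did.

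In the five-dose PERC libraries the relation to Havcr1 gave r = -0.41 for Fbp1 and -0.54 for Pcx without the 2 farthest libraries, -0.51 for Fbp1 with lane, and -0.53, -0.49 and -0.64 for Fbp1 and -0.29 and -0.63 for Pcx (LFD and MCD) within diets, none of which passed. The relation of Slc1a5 to Pck1 was -0.12 in MCD alone.

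Counts over all genes moved more. For a single dose in LFD, 107 became 49 with the adipocyte term, 226 with DESeq2, 286 with lane and 8 with only the groups compared, and 19, 44, 232 and 285 without PERC replicates 4, 1, 5 and 3 and 67 and 62 without vehicle replicates 2 and 5. For 5 doses in LFD, 1010 became 460 with the adipocyte term and 363 with only the groups compared, and 640, 645 and 1798 without PERC replicates 1, 8 and 4 and 650 without vehicle replicate 7. In HFD vehicle against LFD, 970 became 348 with the adipocyte term and 1703 with only the groups compared, and in MCD 508 (3.48%) became 0.937% and 6.37% of genes tested, and 327 without LFD vehicle replicate 6. In the single regimen 234 (1.64%) became 383 with DESeq2 and 438 with lane for HFD, with 1.04% and 1.05% without HFD vehicle replicates 3 and 5, and 68 became 120, 114 and 12 (DESeq2, lane, only the groups compared) for MCD, with 10, 29 and 32 without MCD vehicle replicates 2, 3 and 5 and 23, 26 and 44 without LFD vehicle replicates 3, 4 and 5. The other single-dose counts, 1 in HFD and 4 in MCD, stayed at or under 13 and 43.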
